A study of Mus musculus with 10 samples.

Results

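The loci of 4 genes of the fibroblast extracellular matrix, Col1a1, Col1a2, Col3a1 and Fn1, were examined for acetylation of histone H4 (H4Ac) and for binding of the myogenic factors MyoD and Myf5. Each locus was a fixed window of the mouse build mm9: chr11:94775000-94840000 for Col1a1, chr6:4430000-4515000 for Col1a2, chr1:45335000-45425000 for Col3a1 and chr1:71615000-71730000 for Fn1. The windows span 355 kb together, and every peak sharing at least 1 bp with a window was a member. Of 241128 peaks in 7 lists, 245 lay in the loci: 61 of 31120 H4Ac peaks in cells with GFP, 60 of 36864 in cells with MyoD and 76 of 32041 in cells with Myf5, 17 of 45015 MyoD peaks, 31 of 93787 Myf5 peaks, and none of 942 and 1359 peaks of the mock precipitations.

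All cells were mouse embryonic fibroblasts of the genotype MyoD-/-; Myf5-/-, infected with a lentivirus for MyoD, for Myf5 or, as control, for GFP, the green fluorescent protein. They were changed to differentiation medium 24 h after infection and harvested after a further 20 h. Chromatin immunoprecipitation and sequencing gave 1 deposited list for each of MyoD, Myf5, H4Ac in the 3 cell populations, and the MyoD and Myf5 antibodies in GFP cells (mock), while 3 input samples entered no comparison. The titles of the MyoD and Myf5 lists name 2 replicates together, so no group has separate replicates, no difference has a replicate error, and no test across samples was possible. The factors came from a virus and not from their own loci, and the lists give no read total for any library.

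Type I collagen, the main fibre of connective tissue, is built from the products of Col1a1 and Col1a2. Type III collagen, made from Col3a1, forms finer fibres beside it, and Fn1 encodes fibronectin, a glycoprotein that links cells to these fibres. Fibroblasts are a main source of all of them. H4Ac marks active chromatin. The E-box, CANNTG, is the short DNA motif to which both myogenic factors bind when they direct cells to skeletal muscle. In the RefSeq gene order (GRCm38.p6), the next protein-coding genes are Gm11544 and Sgca, which encodes a sarcoglycan of the muscle membrane, around Col1a1, then Bet1 and Casd1 around Col1a2, Gulp1 and Col5a2 around Col3a1, and Atic and Mreg around Fn1. The windows were not matched to gene models of mm9, so peaks are placed by position in the window and not assigned to a promoter, an exon or a neighbouring gene.

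For 2 of the 4 genes, Col1a2 and Col3a1, the RefSeq promoter (250 bases before to 50 after the start of the gene, build GRCm38.p6, plus strand) shows how different the sequence around the starts of these genes is. The Col1a2 promoter is chr6:4505368-4505667 of that build and the Col3a1 promoter is chr1:45311288-45311587. Both are printed 5′ to 3′ with E-boxes (CANNTG, which reads the same on both strands) in capitals.
Col1a2 promoter: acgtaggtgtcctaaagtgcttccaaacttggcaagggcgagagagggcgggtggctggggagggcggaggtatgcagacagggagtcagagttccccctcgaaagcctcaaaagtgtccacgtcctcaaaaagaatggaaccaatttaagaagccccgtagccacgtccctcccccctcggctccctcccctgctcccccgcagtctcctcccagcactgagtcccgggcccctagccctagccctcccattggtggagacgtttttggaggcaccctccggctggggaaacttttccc
Col3a1 promoter: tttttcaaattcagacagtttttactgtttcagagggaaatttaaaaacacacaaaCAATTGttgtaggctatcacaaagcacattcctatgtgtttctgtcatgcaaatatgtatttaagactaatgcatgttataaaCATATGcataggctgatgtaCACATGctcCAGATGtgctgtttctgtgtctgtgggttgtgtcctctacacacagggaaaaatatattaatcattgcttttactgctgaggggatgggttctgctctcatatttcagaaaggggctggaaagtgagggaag
The Col1a2 promoter is 61% GC and the Col3a1 promoter 37.7%, against a median of 52.7% over 32851 promoters. Col1a2 has no CANNTG in this window and Col3a1 has 4. At least 1 occurred in 72.3% of all promoters and at least 4 in 6.49%. Neither of these promoters holds CAGCTG or CAGGTG on either strand, which occurred in 16.3% and 20.2% of all promoters. These letters describe the window only, and the promoters were not placed on the mm9 peaks.

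H4Ac was called at all 4 loci in all 3 cell populations, and the region with the highest coverage in each window and population was called in the other populations too. The 4 loci differed widely among themselves. Col1a2 held 37, 38 and 40 H4Ac peaks in cells with GFP, MyoD and Myf5, Col3a1 held 11, 12 and 27, Fn1 8, 6 and 8, and Col1a1 5, 4 and 1. Col1a2 thus held most H4Ac peaks in each population, the Col1a1 count was lowest in Myf5 cells, and the Col3a1 count was highest there. The MyoD list is the longest of the 3. When only the 31120 peaks of highest coverage were kept in every population, Col1a2 held 37, 24 and 37 peaks and Col3a1 11, 7 and 23, so the MyoD counts at both loci were then below those of GFP cells. The counts at Fn1 and Col1a1 were the same under that limit. It leaves the GFP list whole and takes the peaks of lowest coverage from the MyoD list, whatever their GC content. The authors' cutoff rises with GC content, from a coverage of 19 to 26 in the MyoD list. The limit therefore does not treat loci of low and high GC alike.

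**Figure D1:**
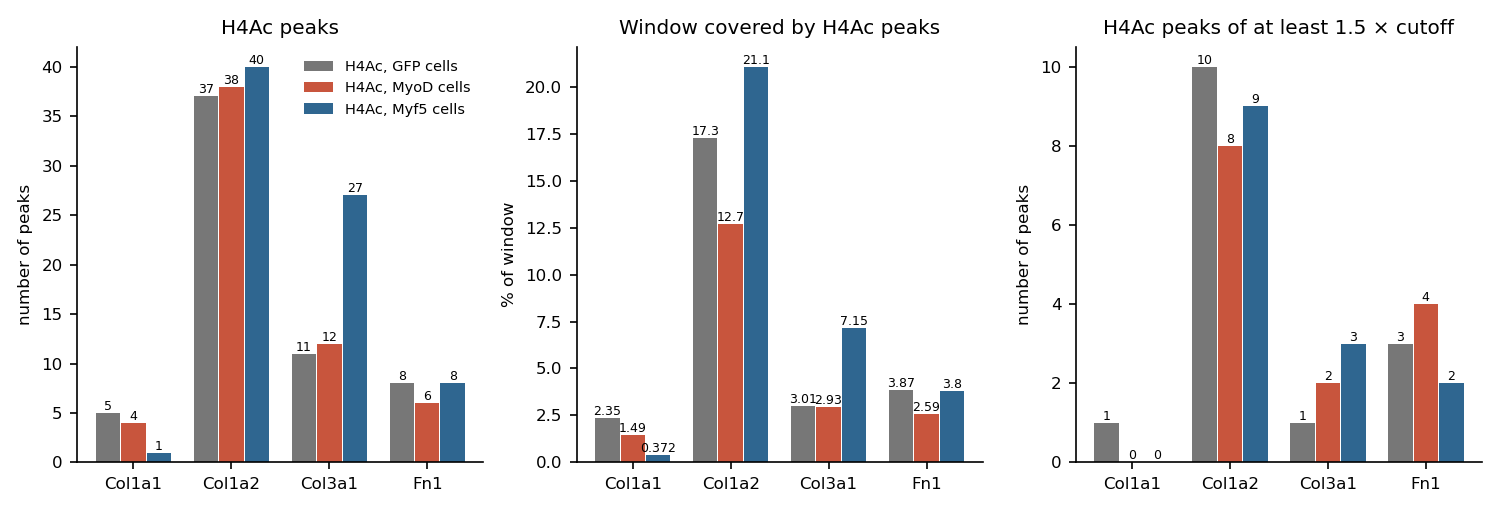
H4Ac peaks per locus (left, number), share of the window covered by them (middle, %) and peaks with a maximum coverage of at least 1.5 times their cutoff (right, number) in cells with GFP (grey), MyoD (red) and Myf5 (blue), with 1 list per bar and therefore no error bar. Col1a2 stands highest in each panel, and the 27 Col3a1 peaks of Myf5 cells exceed the 11 and 12 of the other populations, while 3 peaks there reached 1.5 times the cutoff in Myf5 cells, 1 in GFP cells and 2 in MyoD cells.

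The density of H4Ac peaks in the windows was 17.2, 16.9 and 21.4 per 100 kb in the GFP, MyoD and Myf5 lists, against 1.21, 1.43 and 1.24 over the genome from 3000000 to the last peak end of each chromosome. As background, the genome was divided into consecutive windows as long as each locus. As many H4Ac peaks as at Col1a2 were found in 0.0066% (GFP), 0.0033% (MyoD) and 0.0033% (Myf5) of 30312 such windows, which is 2, 1 and 1 windows. These windows began at 3000000 and were not aligned to the loci. A boundary divided the Col1a2 locus, and the part after it held 32, 30 and 33 peaks, fewer than the whole locus. For Col3a1 the shares were 0.755%, 0.894% and 0.0384% of 28625 windows, and for Fn1 3.38%, 9.22% and 3.36% of 22403. For Col1a1 they were 4.15%, 8.69% and 31.3% of 39641, and the last is the share of windows with any H4Ac peak in Myf5 cells.

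The peaks were many but mostly low. Coverage here is the maximum read depth of a peak as the authors gave it, and the cutoff is their threshold for the GC class of that peak. The median coverage in the loci was 1.25, 1.24 and 1.20 times the cutoff in the GFP, MyoD and Myf5 lists, against 1.42, 1.37 and 1.38 over the whole lists. Of the peaks in the loci, 29.5% (exact 95% binomial interval 18.5 to 42.6) ranked in the upper 50% of the GFP list. For MyoD cells the share was 30.0% (18.8 to 43.2) and for Myf5 cells 17.1% (9.43 to 27.5). These intervals cover no error other than that of counting, and peaks of a single stretch depend on each other. When peaks were ranked within their GC class, the shares were 39.3%, 40% and 34.2%.

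Col1a2 carried a few strong regions and a long stretch of low ones. With gaps of up to 5 kb bridged, its H4Ac fell into a stretch of 7.19 kb at chr6:4433550-4440742 and another of 39.9 kb at chr6:4452753-4492667. The first held 5, 8 and 7 peaks in cells with GFP, MyoD and Myf5, the second 32, 30 and 33. Peaks covered 30.9%, 19.5% and 35.5% of the longer stretch. The lower share in MyoD cells went with narrower peaks in that list, whose median width was 264 bp over the genome against 349 bp (GFP) and 373 bp (Myf5), and the part of peak width in it was not tested.

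The strongest H4Ac region of the 4 loci was chr6:4438632-4439591 in the first Col1a2 stretch. Its coverage was 101 in GFP cells, 103 in MyoD cells and 103 in Myf5 cells, with ranks of 1664, 1139 and 1274 by coverage in the respective lists. The second Col1a2 region, chr6:4452753-4453381, which opened the long stretch, had coverages of 85, 97 and 78, with ranks of 2541, 1334 and 2716. The region at chr6:4456448-4456942 followed with 65, 74 and 63, and chr6:4437476-4438419 with 58, 56 and 57. These 4 regions stood above every other Col1a2 region in each population. Ranks from lists of unequal length do not by themselves show a change.

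At Fn1, H4Ac was concentrated in 1 place. The region chr1:71699941-71700941 had a coverage of 100 in GFP cells, 99 in MyoD cells and 101 in Myf5 cells, with ranks of 1707, 1265 and 1345 in their lists. Just before it lay chr1:71698954-71699758 with 47, 44 and 32, and chr1:71697977-71698728 with 57, 55 and 36. Both of these weaker regions were lowest in Myf5 cells. The remaining common region, chr1:71689472-71690999, had coverages of 35, 30 and 41. The other 6 Fn1 regions were each called in a single population, with coverages of 24 to 30 and at most 1.14 times the cutoff: 3 with GFP, 1 with MyoD and 2 with Myf5.

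Col3a1 had no H4Ac peak as strong as those. Its best peak reached a coverage of 35 in GFP cells (rank 15424), 46 in MyoD cells (rank 7555) and 36 in Myf5 cells (rank 14604). Of 36 regions, after merging overlapping peaks of the 3 populations, 3 were called in all of them. The first, chr1:45365796-45366039, had coverages of 26, 25 and 29, and the second, chr1:45367793-45368190, had 35, 33 and 36. The third, chr1:45368424-45368827, had 26 in GFP cells, 46 in MyoD cells and 36 in Myf5 cells, so this region was highest with MyoD.

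Most further Col3a1 regions belonged to Myf5 cells. Of the 36 regions, 18 were called in Myf5 cells only, 5 in GFP cells only, 2 in MyoD cells only, 5 with MyoD and Myf5, 2 with GFP and MyoD and 1 with GFP and Myf5. Of 45627 merged regions over the genome, the share found in Myf5 cells alone was 13.7%. For GFP cells alone it was 10.5%, and for MyoD cells alone 14.0%. The genome shares of the paired classes were 8.30% (MyoD and Myf5), 7.89% (GFP and MyoD) and 4.79% (GFP and Myf5). The strongest of the 18 was chr1:45408024-45408519, with a coverage of 30 (1.5 times the cutoff), and chr1:45406727-45407243 followed with 28. Others of the 5 highest regions not common to all populations were chr1:45356394-45356770 (21 with MyoD and 29 with Myf5), chr1:45356869-45357050 (26 and 23) and chr1:45413138-45413482 (33 with GFP and 25 with MyoD).

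Low GC content was common to the Col3a1 peaks of all 3 populations. All 27 Col3a1 peaks of Myf5 cells were in the class of at most 40% GC, as were 9 of 11 in GFP cells and 11 of 12 in MyoD cells. That class made up 19.2% of the whole Myf5 list, against 13.3% of the GFP list and 13.1% of the MyoD list, and its cutoffs were 20, 21 and 19. Of the 27 peaks, 24 were also under 1.5 times the cutoff, and 22 of these 24 overlapped no GFP peak. Over the genome, 71.1% of the 4292 Myf5 peaks of that kind overlapped none. The part of GC content in the Col3a1 count was not tested.

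Col1a1 had the fewest H4Ac peaks of the loci in each population. Its strongest region in GFP cells, chr11:94789916-94790166, had a coverage of 52 there, 30 in MyoD cells and 33 in Myf5 cells, and was the only Col1a1 region called in all of them. Its ranks were 7233 with GFP, 17484 with MyoD and 17168 with Myf5. Beside it, chr11:94789424-94789724 was called with GFP only (coverage 39). A region at chr11:94819342-94819723 was called with GFP (32) and MyoD (26). The other Col1a1 regions, with 23 to 30, were near their cutoffs, at most 1.07 times, and no H4Ac peak of MyoD or Myf5 cells in this window reached 1.5 times its cutoff.

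**Figure D2:**
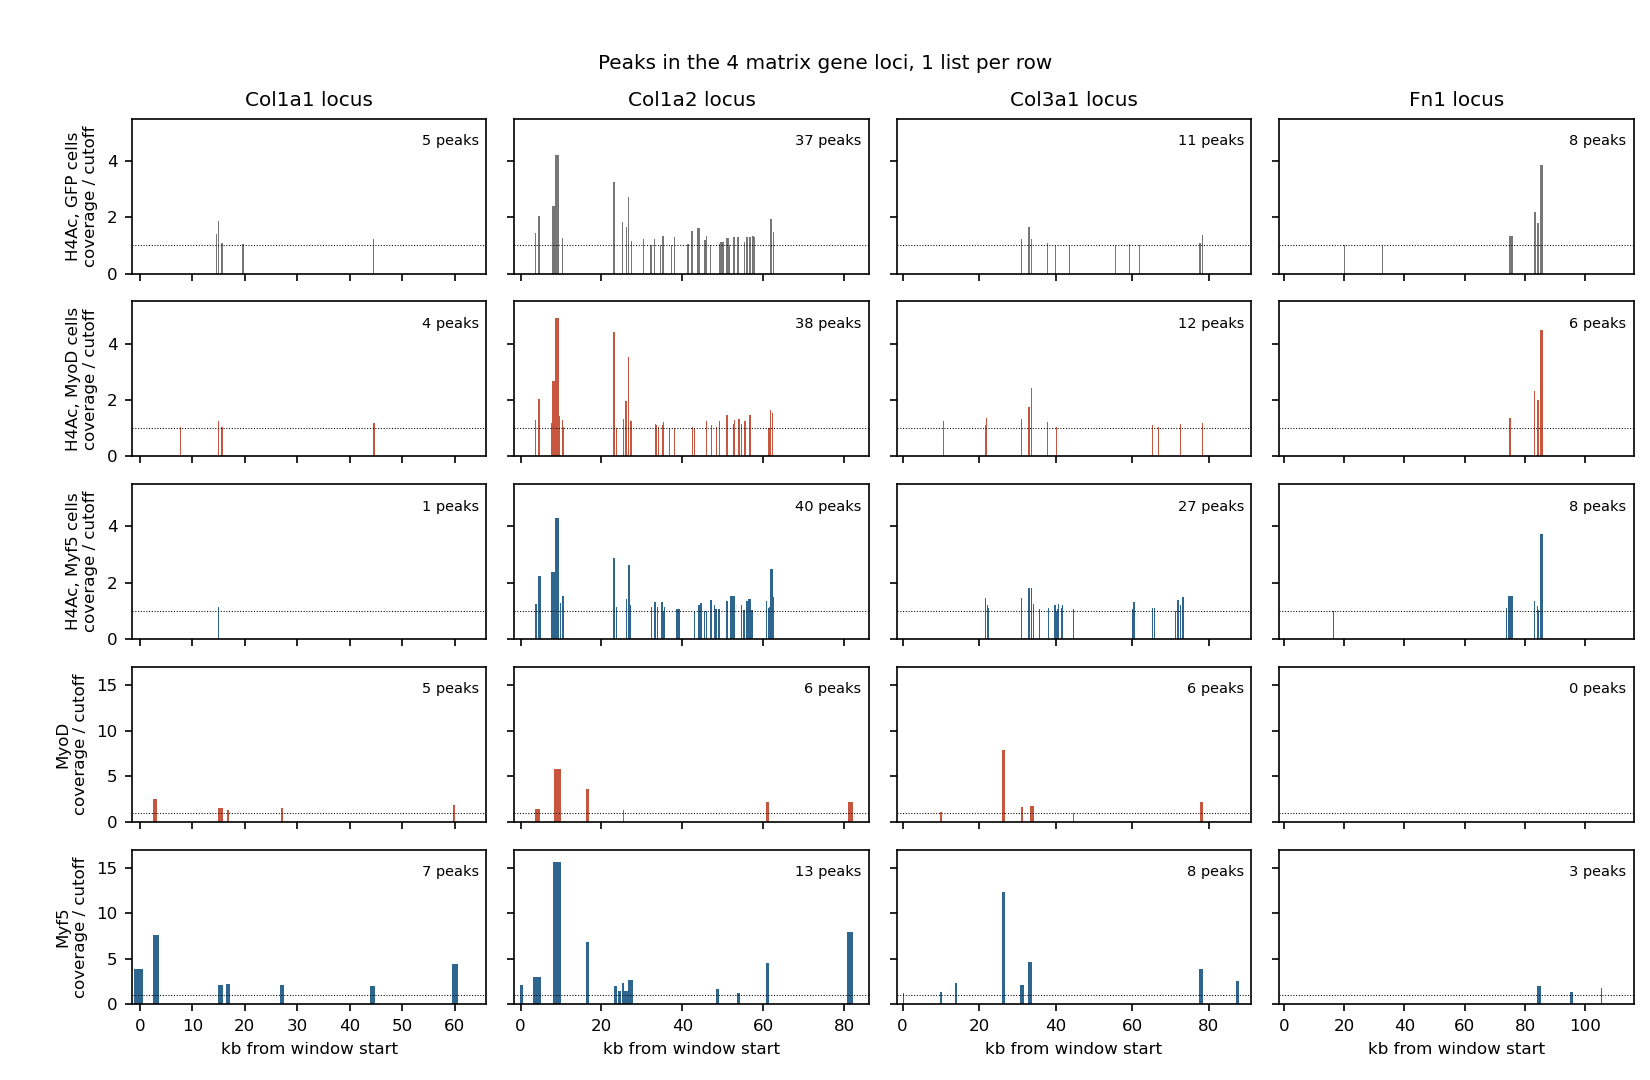
Peaks in the 4 windows, with distance from the window start in kb on the x axis and maximum coverage divided by the cutoff on the y axis. Rows are the lists of H4Ac in cells with GFP, MyoD and Myf5 and of the MyoD and Myf5 factors, a bar is a peak, and the dotted line marks the cutoff. The tallest H4Ac bars of Col1a2 (4.21, 4.90 and 4.29) and of Fn1 (3.85, 4.50 and 3.74) stand at the same place in all populations, and the MyoD row of Fn1 is empty.

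Calls of low peaks often differed between the populations. Of the 61 GFP peaks in the loci, 27 (44.3%, interval 31.5 to 57.6) overlapped no H4Ac peak of MyoD cells, and 25 (41.0%, 28.6 to 54.3) none of Myf5 cells. The shares over the genome were 23.9% and 27.2%. In the other direction, 22 of 60 peaks of MyoD cells (36.7%, 24.6 to 50.1) and 39 of 76 of Myf5 cells (51.3%, 39.6 to 63.0) overlapped no GFP peak, against 30.7% and 31.9% over the genome. With lists of equal length the count for MyoD cells was 7 of 41 and for Myf5 cells 35 of 69. The GFP counts were then 30 and 27 of 61, and no genome share was computed for that setting. Between the populations with a myogenic factor, 47 of 60 peaks of MyoD cells overlapped a peak of Myf5 cells (71.5% over the genome), and 43 of 76 of Myf5 cells one of MyoD cells (72.8% over the genome). The peaks without a counterpart were low: at the loci their median coverage was 1.04 and 1.08 times the cutoff for the GFP peaks and 1.08 and 1.11 times for those of MyoD and Myf5 cells. If peaks within 500 bp counted as shared, 14 and 14 GFP peaks, 7 peaks of MyoD cells and 23 of Myf5 cells had no counterpart. The genome shares at that distance were not computed either.

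Among peaks of at least 1.5 times the cutoff, few lacked a counterpart of any strength. Of 15 such GFP peaks, 14 overlapped an H4Ac peak of MyoD cells (96.6% over the genome) and 13 one of Myf5 cells (91% over the genome). All 14 such peaks of MyoD cells overlapped a GFP peak (91.9% over the genome), and so did 13 of 14 of Myf5 cells (92.8% over the genome). The exceptions were all at Col1a2 or Col3a1. Coverage at chr6:4473602-4474308 was 34 with GFP and 24 with Myf5, with no peak in MyoD cells. At chr6:4455137-4455440 it was 48 with GFP and 29 with MyoD, and at chr6:4472188-4472507 it was 36 and 22, with no peak in Myf5 cells. The last was chr1:45408024-45408519, named above.

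A pair of further Col1a2 regions were among the 5 highest not called in all populations. The region chr6:4439620-4439873 was called with MyoD (30) and Myf5 (31), and chr6:4490552-4491013 with Myf5 only (27). Both overlapped sites of MyoD and Myf5. Of all 101 merged regions in the loci, 27 were called in all 3 populations: 19 at Col1a2, 4 at Fn1, 3 at Col3a1 and 1 at Col1a1. Over the genome 40.8% of merged regions were. Of the 20 regions at the loci that reached 1.5 times the cutoff in some population, 16 were called in all 3, against 79.9% over the genome.

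For the 27 common regions, coverage was ranked in each population among the same 18611 regions called in all 3, so that the ranks share 1 denominator. The main Col1a2 region stood at percentiles 91.0, 93.9 and 93.1 in GFP, MyoD and Myf5 cells, and the main Fn1 region at 90.8, 93.3 and 92.7. The Col1a2 region at chr6:4452753-4453381 stood at 86.3, 92.9 and 85.4. The main Col1a2 region thus stood above this one in each population. Over the 27 regions the percentile in MyoD cells was higher than in GFP cells for 17 and lower for 10, and that in Myf5 cells was higher for 14 and lower for 13. The median absolute difference was 4.82 points with MyoD and 6.85 with Myf5, against 10.2 and 13.3 over all common regions. The 27 regions had a median percentile of 30.2 in GFP cells, and the comparison was not matched for level. It therefore does not show that H4Ac was steadier at these loci.

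The largest moves were at single regions. The third common Col3a1 region, chr1:45368424-45368827, moved from percentile 5.59 in GFP cells to 61.8 in MyoD cells and 29.6 in Myf5 cells, and it overlapped a site of both factors. The Col1a1 region at chr11:94789916-94790166 moved the other way, from 62.7 to 25.3 with MyoD and 21.3 with Myf5, and it too overlapped a site of both factors. With MyoD, these 2 differences lay outside the range of -30.7 to 32.4 points that holds the middle 90% of all common regions. By that definition about 5% of all common regions lie beyond each end, so 2 of 27 regions is no more than the genome share. With Myf5 no region lay outside the matching range of -41.5 to 38.1, although the Col1a1 region (-41.4), chr1:71697977-71698728 (-39.0) and chr1:71698954-71699758 (-37.0) of Fn1 came close to its lower end. The other common regions that overlapped a site of both factors differed less. With MyoD they stood -13.4, -1.76, 4.20 and 2.90 points from GFP cells at Col1a2 and 5.46 and 3.79 points at Col3a1. With 1 list for each population, none of these moves has a replicate error.

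**Figure D3:**
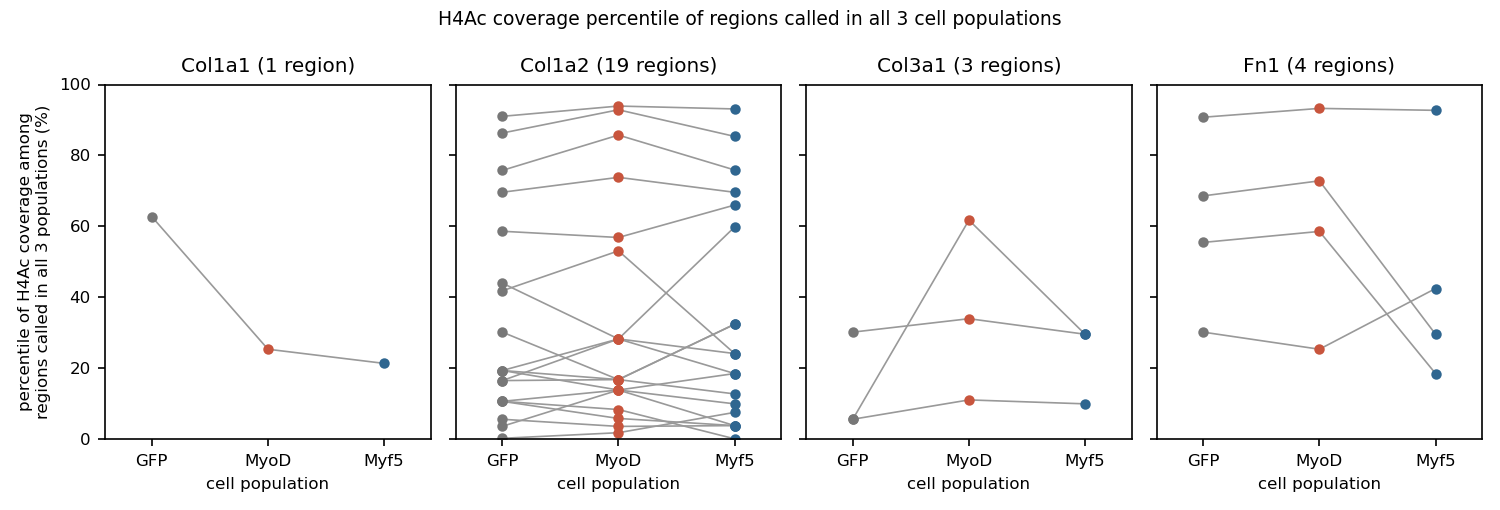
Percentile of H4Ac coverage (y axis, %) in cells with GFP (grey), MyoD (red) and Myf5 (blue) for each region called in all 3 populations, ranked among all 18611 such regions of the genome. A line joins the values of 1 region: the uppermost lines of Col1a2 and Fn1 stay at percentile 90.8 or higher, whereas the Col1a1 region falls from 62.7 to 25.3 and 21.3 and 1 Col3a1 region stands at 5.59, 61.8 and 29.6.

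In the lists as deposited, MyoD and Myf5 peaks were found at 3 of the 4 loci, and Myf5 peaks without MyoD at the Fn1 locus. MyoD had 5 peaks at Col1a1, 6 at Col1a2, 6 at Col3a1 and 0 at Fn1. Myf5 had 7, 13, 8 and 3. The Myf5 list is much the longer, and with both held to 45015 peaks Myf5 had 6, 7, 5 and 0, so the difference at Fn1 was no longer there. As many MyoD peaks as at Col1a1, Col1a2 and Col3a1 were found in 5.65%, 5.99% and 6.76% of consecutive windows of those lengths. The matching shares for Myf5 were 10.9%, 2.78% and 14.9%, and 50.4% at Fn1. A window as long as that of Fn1 held any MyoD peak in 58.4% of cases. No mock peak lay in any of the windows. The mock lists held 0.0366 (MyoD antibody) and 0.0527 (Myf5 antibody) peaks per 100 kb over the genome, so their absence here says little.

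The strongest Myf5 site was chr6:4437963-4439910 at Col1a2, with a MyoD coverage of 156 (rank 4062 of 45015) and a Myf5 coverage of 423 (rank 2860 of 93787). It overlapped 3 H4Ac regions of the first Col1a2 stretch, and of these chr6:4437476-4438419 and chr6:4438632-4439591 were called in GFP cells too. The strongest Col3a1 site, chr1:45360876-45361668, had 213 for MyoD (rank 2174) and 334 for Myf5 (rank 4485), and the nearest H4Ac peak of any population lay 3395 bp away. It was the strongest MyoD site of the 4 loci. The strongest Col1a1 site, chr11:94777441-94778706, had 67 and 207, and lay 3874 bp from the nearest H4Ac peak, in MyoD cells. At Fn1 the strongest site was a Myf5 peak of coverage 55 at chr1:71698958-71700150, which reached into the main H4Ac region.

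Other sites of both factors lay on either side of this division. The Col1a2 site chr6:4446090-4446993 had 96 for MyoD and 185 for Myf5, and lay between the 2 H4Ac stretches, at least 5348 bp from a peak. The site chr6:4510754-4512066 had 57 and 215, and lay at least 18087 bp from one. The Col1a1 site chr11:94834514-94835573 had 52 and 128, and lay at least 14791 bp from one. Sites with H4Ac included chr1:45367782-45369260 at Col3a1 (46 for MyoD and 126 for Myf5), chr1:45412373-45413512 at Col3a1 (58 and 106) and chr6:4490594-4491391 at Col1a2 (58 and 122). In Myf5 coverage they stood below the sites just named without H4Ac, but that order holds for these chosen sites only. The Col1a1 sites chr11:94773806-94775544 and chr11:94791355-94792251, also without H4Ac, had lower Myf5 coverages of 105 and 64. Over all Myf5 peaks of the loci, the median was 2.17 times the cutoff with a GFP H4Ac peak and 2.25 without. The Col1a2 site with a Myf5 coverage of 423 carried H4Ac, so sites with and without H4Ac overlapped in factor coverage.

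After merging overlapping peaks of both factors, 32 sites were counted: 17 with both factors, 14 with Myf5 only and 1 with MyoD only. Over the genome, 42633 of 94497 sites had both factors, 50737 Myf5 only and 1127 MyoD only. With both lists held to 45015 peaks, 15 had both factors, 3 Myf5 only and 3 MyoD only. Most sites with Myf5 only thus rested on the lower part of the longer list. That limit takes low Myf5 peaks from the whole genome, and the genome classes were not counted under it. Of the 17 MyoD peaks 16 overlapped a Myf5 peak (94.1%, 71.3 to 99.9), against 97.5% over the genome, and of the 31 Myf5 peaks 17 overlapped a MyoD peak (54.8%, 36.0 to 72.7), against 45.9%. At the start of the Col1a1 window the MyoD peak of a shared site lay just outside the window. The site with MyoD only, chr1:45379373-45379839 at Col3a1, had a coverage of 27, equal to its cutoff, and ranked 44794 of 45015. Myf5 peaks without MyoD had a median of 1.89 times the cutoff and at most 2.63 times, against a median of 3.93 for those with MyoD.

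**Figure D4:**
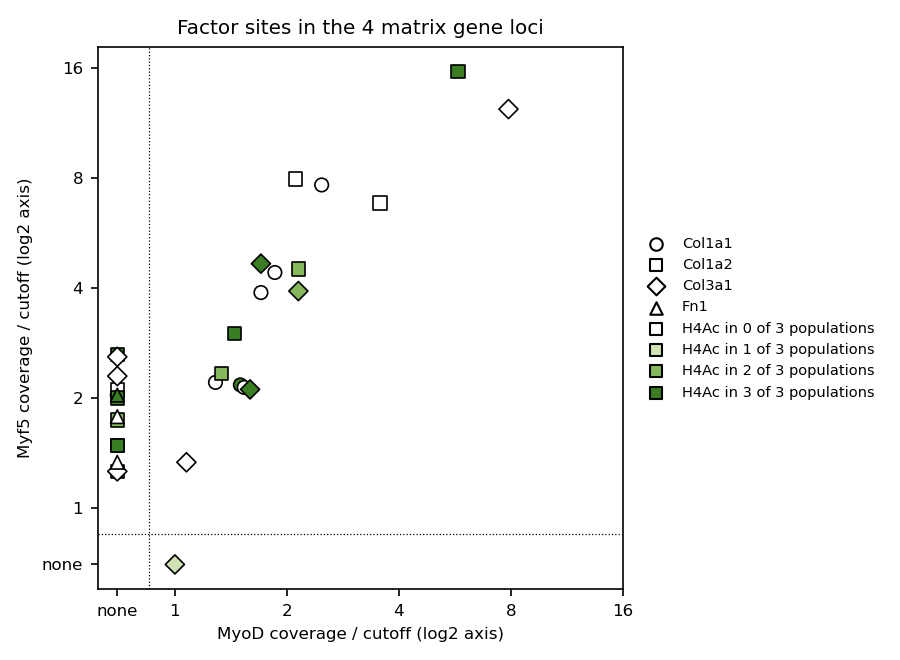
The 32 factor sites of the loci, with MyoD coverage over its cutoff on the x axis and Myf5 coverage over its cutoff on the y axis (both log2 axes), a symbol for each locus and a darker fill for H4Ac in more of the 3 populations. Sites without a peak of a factor are drawn beyond the dotted line: 14 have no MyoD peak, among them all 3 Fn1 sites, and filled and open symbols lie at high and low values alike, with a filled Col1a2 site at 15.7 and an open Col3a1 site at 12.4 for Myf5.

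Of the 32 sites, 13 carried an H4Ac peak in GFP cells (40.6%), 15 in MyoD cells (46.9%) and 12 in Myf5 cells (37.5%). The shares over all 94497 sites were 11.5%, 13.6% and 11.9%. By locus, 9 of 13 Col1a2 sites, 4 of 9 Col3a1 sites, 2 of 7 Col1a1 sites and 1 of 3 Fn1 sites carried H4Ac in some population, against 16.4% of all sites. In 9 of the 16 sites with H4Ac it was called in all 3 populations, against 52.7% over the genome. Sites with H4Ac in MyoD and Myf5 cells and none in GFP cells were chr6:4478369-4478962, a Myf5 site of coverage 47, and chr6:4490594-4491391, named above. They lay 46 and 337 bp from the nearest GFP peak.

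Counted over all H4Ac peaks of the loci, most lay apart from factor sites. Of the H4Ac peaks of MyoD cells, 12 of 60 (20.0%, 10.8 to 32.3) overlapped a MyoD peak, against 31.9% over the genome. Of those of Myf5 cells, 23 of 76 (30.3%, 20.2 to 41.9) overlapped a Myf5 peak, against 45.5%. In GFP cells, which received neither factor, 11 of 61 (18.0%, 9.36 to 30.0) lay at places that MyoD bound in MyoD cells and 20 of 61 (32.8%, 21.3 to 46.0) at places that Myf5 bound in Myf5 cells, against 27.4% and 47% over the genome. Of the 50 GFP peaks that overlapped no MyoD peak, 32 were at Col1a2, which held 37 of all 61 GFP peaks. Among peaks of at least 1.5 times the cutoff, 11 of 15 in GFP cells, 10 of 14 in MyoD cells and 8 of 14 in Myf5 cells overlapped a Myf5 peak. The genome shares for such peaks were 55.5%, 58.3% and 53.5%, and counts this small do not set the loci apart from them. A MyoD peak was overlapped by 5 of the 15 in GFP cells (33.6% over the genome) and 4 of the 14 in MyoD cells (38% over the genome).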

How the data were processed

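Per the file headers, each deposited list gives a peak's position, its maximum coverage (signal, with no scaling named), a coverage cutoff for its GC class and the authors' p-value. Neither that p-value nor the control p-value deposited by the authors, treated as a score because it exceeds 1 in places, was used. The submitters' processing notes name BWA 0.7.5, CASAVA 1.8.2, mm9 and hg19 with no role, and positions were taken as mm9. No source used here names the peak caller or says how replicates were joined. Per the labels' protocols, factor chromatin was fixed for 11 min before sonication. For H4Ac, unfixed nuclei were digested with micrococcal nuclease (15 units, 18 min).

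Peaks were counted in the windows, ranked within their list, and matched by overlap of at least 1 bp. Alternatives were a floor of 1.5 times the cutoff, peak centres in the window, lists of equal length, 50% overlap, 500 bp distance, and ranks by coverage over cutoff or within GC classes; a floor on the first list only, and equal lists for classes of factor sites, were added after seeing the data. Positions named are the strongest peak of each locus and list and up to 5 regions a locus not common to all populations; other positions were chosen after their values were seen. The loci and lists were chosen with earlier results of these data known. A wider list of matrix genes and muscle marker loci was not run, because no gene positions of mm9 were used here. The overlap steps were tested on simulated data. Shares have exact Clopper-Pearson intervals. Software was Python 3.11.15 with matplotlib 3.10.9, numpy 2.4.6, scipy 1.17.1 and pandas 2.3.3.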

Additional observations from a re-analysis of the deposited data

How the results depend on the processing

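Each group had 1 list, so no replicate could be left out. No paired analysis was possible because no group has more than 1 list. Of 52 values under other settings, 32 stayed within 1.5 times the main count or within the interval of the main share. With every list held to peaks of at least 1.5 times the cutoff, the H4Ac peaks in the loci numbered 15 (GFP), 14 (MyoD) and 14 (Myf5) in place of 61, 60 and 76. GFP peaks without a counterpart then numbered 4 (MyoD cells) and 7 (Myf5 cells), and peaks of MyoD and Myf5 cells without a GFP peak 1 and 6. Those 4 counts were 1, 2, 0 and 1 when the floor applied to the first list alone, and 14, 14, 7 and 23 when peaks within 500 bp counted as shared. With lists of equal length, Myf5 peaks in the loci numbered 18 in place of 31, since the weakest peaks of the longer lists are then left out. H4Ac peaks of MyoD cells without a GFP peak then numbered 7 of 41 in place of 22 of 60. Factor sites with Myf5 only then numbered 3 in place of 14, and those with MyoD only 3 in place of 1. The share of Myf5-cell H4Ac peaks in the upper 50% of the list was 34.2% when ranked within GC classes, in place of 17.1%. Peak centres in the window and an overlap of 50% of the shorter peak moved no count past 1.5 times. Coverage names no scaling between lists, and values just under a cutoff are not in the lists, so a missing low peak does not show that H4Ac was absent. Depth per sample is unknown.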
